A study of Arabidopsis thaliana with 12 samples.

Results

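The genes described here are core cell cycle genes of Arabidopsis. They include cyclins of the A, B and D families and the cyclin-dependent kinases (CDKs) CDKA and CDKB. The CDK inhibitors KRP1 to KRP7, SIM and SMR1 are also included. The others are the mitotic activators CDC20.1 and CDC20.2 and the cytokinesis genes HINKEL and KNOLLE. All were taken as a fixed list of loci by function, drawn up with earlier results of these data known. These members make up 43 of the 27416 genes listed for each library. The A and B families are not complete among them. A further 5 A and B cyclins, with CYCB1;1 among them, were counted as a separate list. Below, A and B cyclins are the members unless the other A and B cyclins are named. The 43 are 8 B cyclins, 7 A cyclins, 10 D cyclins, 5 CDKs, 9 inhibitors, 2 CDC20 genes and 2 cytokinesis genes. They were measured by poly(A) RNA-seq in 12 libraries from plants of the Columbia ecotype, in 4 groups of 3 independent biological replicates. The groups are the aerial part and the roots of wild-type plants (WT), and the aerial part and the roots of plants labelled as psp1, a mutant of phosphoserine phosphatase, an enzyme of serine synthesis. The labels used here give neither the allele nor the age of the plants. The titles mark every library labelled psp1 with the code HS, which WT titles lack and which the labels do not explain. All plants grew under the same regime of 16 h of light and 8 h of dark on vertical agar plates and were collected as the night ended.

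In plants as in animals, a CDK acts only when bound to a cyclin. D cyclins with CDKA bring cells out of G1 and into DNA replication, A cyclins act from S phase to early mitosis, and B cyclins with CDKA and the plant-specific CDKB drive mitosis. KRP and SIM/SMR proteins bind and inhibit these complexes, CDC20 proteins direct the anaphase-promoting complex to destroy mitotic cyclins, and HINKEL (a kinesin) and KNOLLE (a syntaxin) build the cell plate at the end of division. Dividing cells are concentrated in meristems, such as the root tip, and in young leaves.

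PSP1, the gene named in the mutant, stood at 50.4 to 73.8 CPM (counts scaled to the library total) in WT aerial libraries and at 243 to 401 CPM in those labelled psp1. In roots it stood at 141 to 167 CPM in WT and at 114 to 145 CPM in the libraries labelled psp1. Since the aerial values do not show a loss of the transcript, the mutant libraries are called the libraries labelled psp1 throughout. WT libraries held 7302386 to 9590308 counts and the libraries labelled psp1 3627193 to 5873935, so that depth and genotype cannot be told apart in these groups. The 5 leaf photosynthesis genes used as a check summed to 15200 to 20300 TPM (a level scaled by gene length and by the sum of the library) in WT aerial libraries and to 245 to 271 TPM in WT roots. The defining root tip genes PLT1, PLT2, WOX5 and BBM were at 0 in all 6 aerial libraries. Both organ labels match these photosynthesis and root tip genes. The 8 shoot meristem genes were divided. They summed to 26.7 to 29.5 TPM in the WT aerial part and to 98.9 to 109 TPM in WT roots. Most of that was CLV1, at 17.2 to 21.1 and 80.3 to 87.6 TPM. BP was also higher in WT roots, while STM was at 4.93 to 5.84 TPM in the WT aerial part and at most 0.462 TPM in WT roots.

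The 43 genes together took far more of the transcriptome in roots than in the aerial part. Their summed level was 349, 337 and 375 TPM in the 3 WT aerial libraries and 977, 972 and 976 TPM in the 3 WT root libraries. In the libraries labelled psp1 the sums were 390, 375 and 393 TPM in the aerial part and 915, 908 and 788 TPM in roots. In both genotypes every root library lay above every aerial library, and in roots all 3 libraries labelled psp1 lay below all 3 WT libraries. As these are whole organs, fewer cells of a type and less RNA per cell cannot be told apart in any value given here.

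In WT roots the most abundant member was CDC20.1, at 119 ± 11 TPM (mean ± SD, n = 3 here and below). The D cyclin CYCD3;1 followed at 88.4 ± 14 TPM, CDC20.2 at 87.4 ± 16 TPM and KNOLLE at 70.6 ± 5.5 TPM. Their spread does not resolve the order of the second and the third. In the WT aerial part the order was another one, led by the D cyclin CYCD3;2 at 62.1 ± 9.5 TPM, then CDKA;1, the CDK used throughout the cycle, at 37.1 ± 3.8 TPM, the inhibitor KRP2 at 26.6 ± 1.3 TPM and the inhibitor KRP4 at 26.1 ± 3.9 TPM, of which the last 2 do not differ beyond their spread. The B cyclins were scarce there, between 0.297 ± 0.22 TPM for CYCB2;1 and 4.09 ± 0.81 TPM for CYCB1;4. At the other end stood CYCD7;1, which had no count in either root group, where 3 counts over the group's libraries would be 0.115 CPM in WT and 0.200 CPM in the libraries labelled psp1. CYCD7;1 and CYCA2;1 had no count in the aerial libraries labelled psp1 either, where that limit is 0.227 CPM. These limits cover counting error only.

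**Figure D1:**
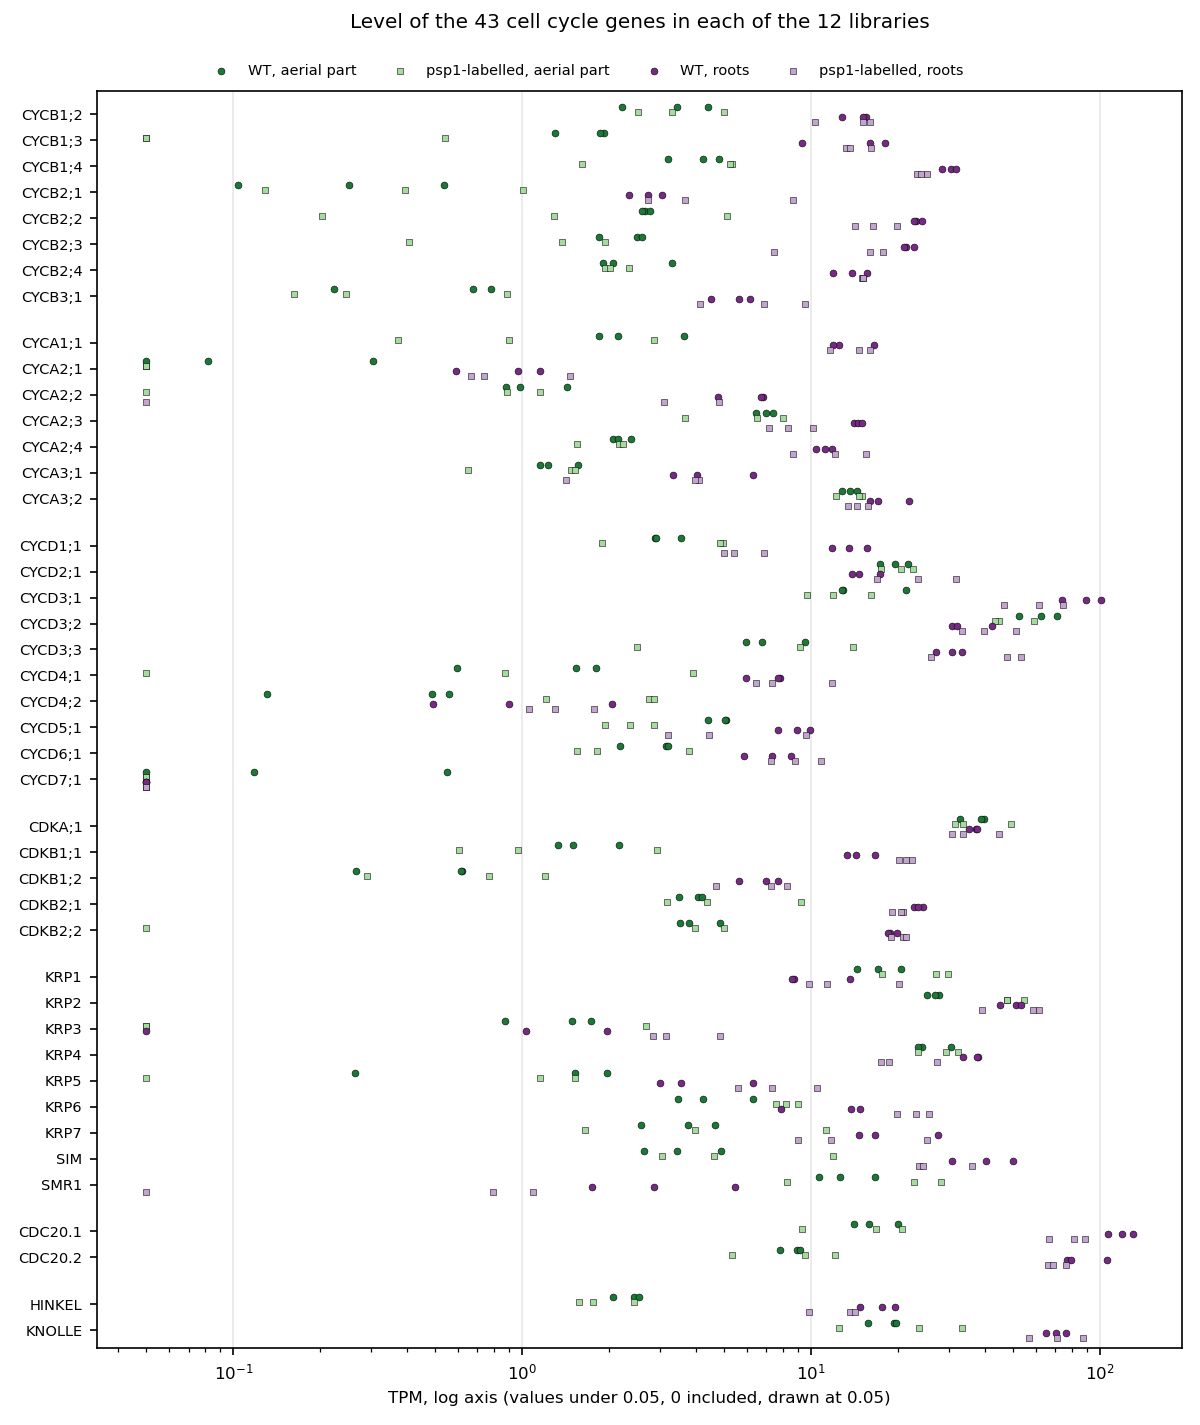
TPM of each of the 43 members in each of the 12 libraries, on a log axis. Circles are WT and squares are libraries labelled psp1, green for the aerial part and purple for roots, and genes are grouped by role. The B cyclins, the CDKB genes and the CDC20 genes have a higher mean TPM in roots than in the aerial part in both genotypes, while CYCD3;2, KRP1 and SMR1 have a lower one.

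Roots were compared with the aerial part within each genotype with the edgeR exact test on TMM-scaled counts. A gene is called when its p, adjusted by Benjamini-Hochberg over all genes tested, is under 0.01, and a member with too few counts for the filter is not tested. Most of the members were higher in WT roots. Of the 39 members tested in WT, 28 were higher in roots and 5 lower, against 33.6% of all 18202 genes tested called higher and 30.8% called lower. The median log2 difference was 1.83 over the tested members and 0.03 over all genes tested. By CPM the 2 groups did not overlap for 34 tested members with roots above and 4 with roots below. Of all 18202 genes tested, 9995 and 4191 did so, so that separated groups are common in this comparison. All 8 B cyclins among the members were higher in roots, by 1.60 to 2.77 on the log2 scale. So were the 2 CDC20 genes (2.31 and 2.82), HINKEL (2.37 ± 0.15, SE) and KNOLLE (1.43 ± 0.13). The lowest of these B cyclins, CYCB1;2, shares 27.1% of its 31-base words with CYCB1;5, so reads may be divided between them. With the counts of both summed the difference was 1.31 (adjusted p = 9.07e-10). Of the A cyclins 5 of 6 tested were higher, and of the CDKs the 4 CDKB genes were higher, by 1.73 to 3.22. Outside the members, 1 of 3 tested other A and B cyclins was called higher and 0 lower. Their log2 differences ran from -0.94 to 2.25, with a median of 0.21. The calls of CYCA2;3 (0.0292 and 0.0142) and CYCA3;1 (0.0179 and 0.013) were lost without WT aerial library 1 or 2, given by adjusted p in that order, and that of CYCA3;1 without WT root library 3 (0.02). CYCD6;1 lost its call without WT aerial library 1 (0.08), 2 (0.0185) or 3 (0.0205) and without WT root library 2 (0.0436) or 3 (0.0195).

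The 4 largest differences in that direction among members with at least 10 counts follow. CDKB1;2 (AT2G38620, TAIR10.1 chr2:16152473-16154086, plus strand), a CDK of the G2 to M transition, was at 0.618, 0.265 and 0.614 TPM in WT aerial libraries 1 to 3 and at 7, 5.65 and 7.71 TPM in WT root libraries 1 to 3 (log2 difference 3.22 ± 0.29, adjusted p = 4.65e-14). SIM (AT5G04470, TAIR10.1 chr5:1266625-1267416, minus strand), an inhibitor known from trichomes, was at 3.45, 2.64 and 4.90 TPM against 30.9, 40.4 and 50 TPM (2.96 ± 0.28, adjusted p = 1.99e-15). In both cases the lowest root library lay several times above the highest aerial one. CDC20.2 was at 8.96, 9.15 and 7.81 TPM against 106, 77.0 and 79.3 TPM (2.82 ± 0.17, adjusted p = 1.36e-57). CYCB3;1, a B cyclin of a family of its own, was at 0.678, 0.223 and 0.777 TPM against 4.52, 6.13 and 5.63 TPM (2.77 ± 0.47, adjusted p = 3.94e-17). Here too the groups were far apart.

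The D cyclins and the inhibitors, the members that link the cycle to growth and differentiation, were divided. Of 8 D cyclins tested in WT, 5 were higher in roots and 2 lower. CYCD3;2 was lower by the most, at 62.5, 52.4 and 71.3 TPM in the aerial part and 30.7, 32.0 and 42.3 TPM in roots (-1.33 ± 0.19, adjusted p = 2.17e-15). CYCD2;1 was at 17.4, 21.7 and 19.6 TPM against 14.7, 17.3 and 13.9 TPM (-0.87 ± 0.12, adjusted p = 4.41e-07), and its groups almost touch. Within the same CYCD3 family CYCD3;1 was higher in roots (1.99 ± 0.27). Of 8 inhibitors tested, KRP7 and SIM were higher in roots and KRP1 and SMR1 lower. SMR1 (AT3G10525, TAIR10.1 chr3:3281306-3282131, minus strand), which holds giant cells of the sepal and leaf epidermis out of division, was at 10.7, 16.6 and 12.6 TPM in the aerial part and 1.75, 2.87 and 5.46 TPM in roots (-2.43 ± 0.39, adjusted p = 2.57e-08). KRP1 (AT2G23430, TAIR10.1 chr2:9976590-9978090, minus strand) was at 20.5, 17.1 and 14.4 TPM against 8.74, 13.6 and 8.63 TPM (-1.26 ± 0.25, adjusted p = 3.48e-06). Neither pair of groups overlapped.

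CDKA;1 (AT3G48750, TAIR10.1 chr3:18071454-18074641, plus strand) shows how the scaling enters these values. Its deposited TPM were 39.7, 32.7 and 38.9 in the WT aerial part and 37.3, 35.3 and 37.5 in WT roots, which overlap, but with TMM scaling it was called lower in roots (-0.53 ± 0.09, adjusted p = 0.000405). With library totals in place of TMM its difference was -0.02 (adjusted p = 0.931), and that scaling moves the median of all genes tested from 0.03 to 0.54. With library totals 33 members were higher in WT roots and 3 lower, and the calls of all genes went from 6114 higher and 5615 lower to 9109 and 3663. CYCD2;1 was also lost there (-0.35, adjusted p = 0.0474). For SIM and SMR1, 257 of 384 and 287 of 387 coding bases lie under a gene on the other strand. Smaller parts do so for KNOLLE (211 of 933), CYCD6;1 (230 of 909) and CDKB1;2 (61 of 936). Since no strand rule of the counting is stated, reads of these members and of the gene opposite cannot be told apart there.

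In the libraries labelled psp1 the same comparison gave 21 members higher in roots and 3 lower of 36 tested, against 25.2% of 17344 genes called higher and 24.5% called lower, with a median of 1.60 over the members. By CPM the groups did not overlap for 26 tested members with roots above and 0 with roots below. Of all 17344 genes tested, 8636 and 3415 did so. All 8 B cyclins among the members were again higher in roots, as were the 4 CDKB genes, both CDC20 genes, HINKEL and KNOLLE. Outside the members, 1 of 3 tested other A and B cyclins was called higher and 0 lower, with differences from -0.09 to 2.70. CYCB1;2 differed by 1.27, and by 0.98 (adjusted p = 0.00933) with its counts summed with those of CYCB1;5. CYCB1;3 had the largest difference, at 0.540, 0 and 0 TPM in aerial libraries 1 to 3 and 13.2, 16.2 and 13.6 TPM in root libraries 1 to 3 (5.21 ± 0.53, adjusted p = 6.77e-18). With 4 counts in the aerial part in all, the size of that fold is not well determined. CYCB3;1 was at 0.162, 0.245 and 0.884 TPM against 6.89, 9.57 and 4.12 TPM (3.37 ± 0.62, adjusted p = 1.99e-07). The groups were fully separated for both. CDKB1;1 was at 0.966, 2.93 and 0.604 TPM against 20.1, 22.4 and 21.4 TPM (3.17 ± 0.54, adjusted p = 3.92e-10), and CYCB2;3 at 1.94, 1.37 and 0.405 TPM against 17.8, 16.0 and 7.46 TPM (2.74 ± 0.63, adjusted p = 6.96e-07). These too were separated, although root library 3 held less CYCB2;3 than the other 2 root libraries.

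The 3 members lower in the roots labelled psp1 were KRP1, KRP4 and CYCD3;2. KRP1 was at 27.0, 17.6 and 29.9 TPM in the aerial part and 11.4, 20.2 and 9.83 TPM in roots (-1.52 ± 0.34, adjusted p = 0.000430), with root library 2 above aerial library 2. KRP4 was at 23.4, 29.3 and 32.2 TPM against 17.5, 18.7 and 27.3 TPM (-1.09 ± 0.26, adjusted p = 0.000640). CYCD3;2 was at 59.0, 44.9 and 43.4 TPM against 39.6, 51.2 and 33.4 TPM (-0.92 ± 0.19, adjusted p = 7.83e-05). All 3 pairs of groups overlap in TPM, and with library totals as scaling, which moves the median of all genes tested from 0.04 to 0.60, none of these calls remained and 25 members were higher (7137 genes higher and 2849 lower, against 4363 and 4252 with TMM). Without root library 1 the adjusted p of KRP1 was 0.0133 and that of KRP4 0.0159, and without root library 2 that of KRP4 was 0.0134. Calls of members higher in these roots were lost as well, and 15 to 21 members were called higher when 1 library was left out. Without aerial library 1 the adjusted p was 0.0167 for CYCB1;2, 0.0224 for CYCB2;1, 0.0123 for CYCB2;2, 0.0392 for CDKB2;1, 0.0104 for KRP5 and 0.0182 for KNOLLE. Without aerial library 2 it was 0.0156 for CYCB2;1, 0.0414 for CDKB2;1, 0.0129 for KRP5 and 0.0332 for KNOLLE, and without aerial library 3 it was 0.0358 for KRP5. Without root library 1 it was 0.0353 for CYCB1;2, 0.0109 for CDKB1;2, 0.0536 for CDKB2;1, 0.0139 for CDKB2;2 and KRP5 and 0.0249 for KNOLLE. Without root library 2 it was 0.0285 for CYCB1;2, 0.0107 for CYCB2;2, 0.0132 for CYCD3;3, 0.0356 for CDKB2;1 and 0.0124 for CDKB2;2. Without root library 3 it was 0.0335 for CYCB2;1, 0.0251 for CDKB2;1, 0.0278 for KRP5 and 0.053 for KNOLLE. The other calls of higher members held in those of these fits that tested them. SMR1 was at 8.26, 22.8 and 28.2 TPM in the aerial part labelled psp1 and at 0.791, 0 and 1.09 TPM in the roots, without overlap, but its counts were too few there to be tested. The WT and psp1 comparisons of organs share no library, but each shares its libraries with the comparisons of genotypes below.

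**Figure D2:**
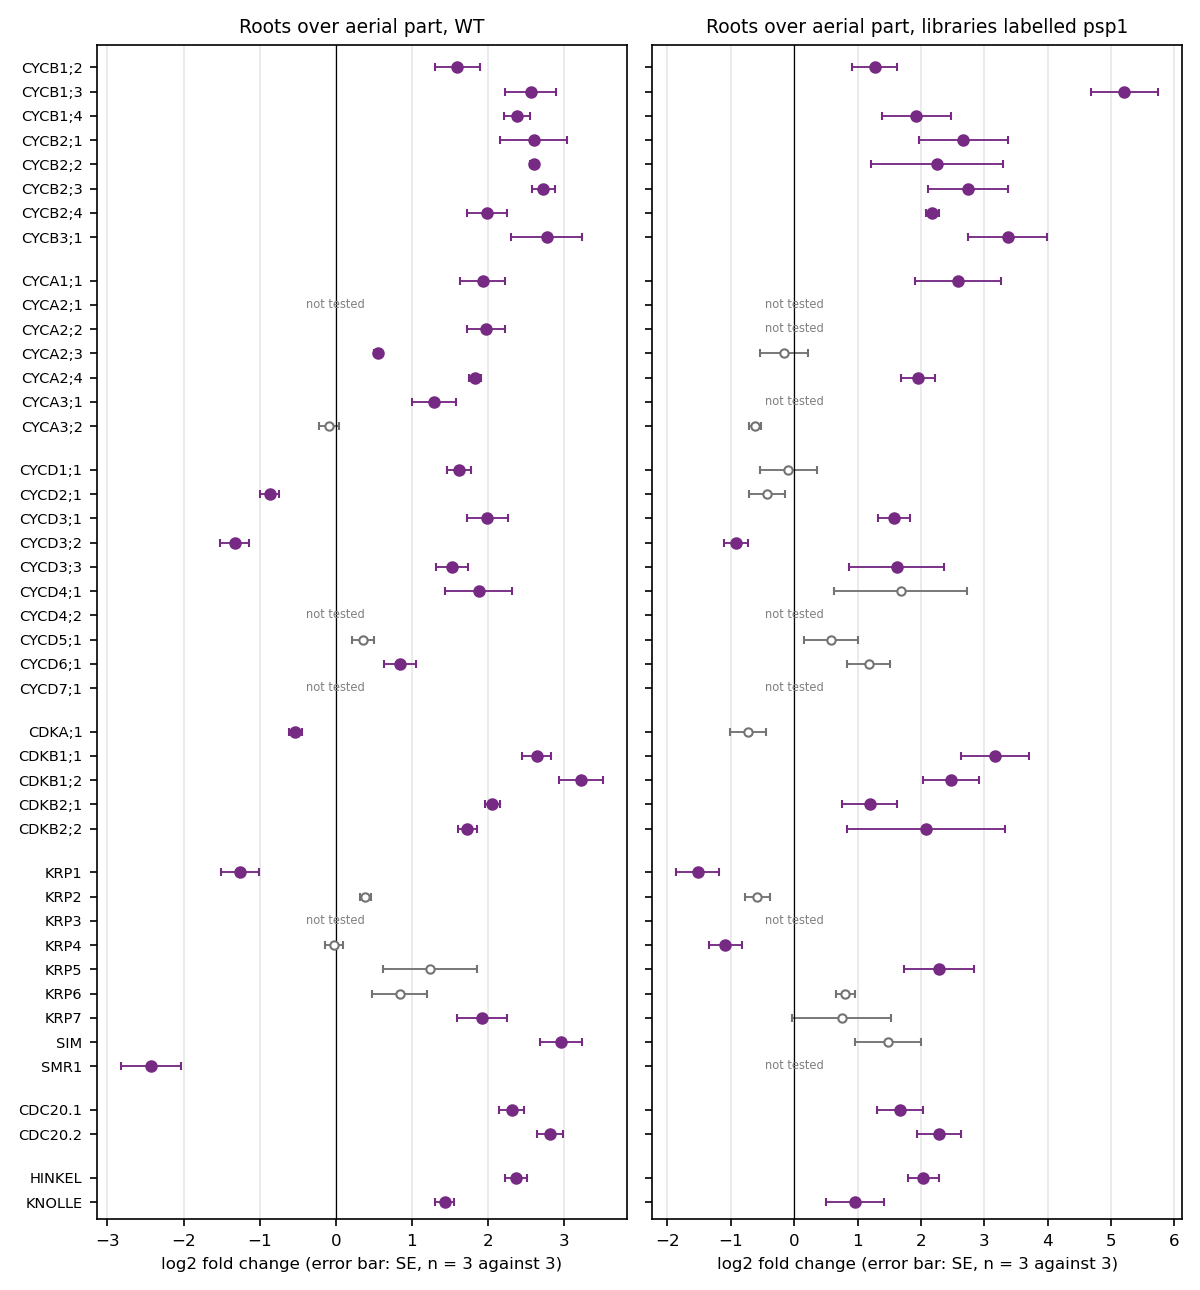
Log2 fold change of roots over the aerial part for each member, in WT (left) and in the libraries labelled psp1 (right), with the SE over 3 against 3 libraries. Filled points passed an adjusted p of 0.01. Filled points lie on the right for all 8 B cyclins and the 4 CDKB genes in both panels, and on the left for KRP1 and CYCD3;2 in both.

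In roots, the libraries labelled psp1 were compared with WT to ask how the mutant differs there. Of 39 members tested 9 fell and 0 rose, against 9.10% of all 17793 genes tested called lower and 8.72% called higher. DESeq2 called 8 members lower and 0 higher, and 17 members of the 39 had an unadjusted p under 0.05 in the exact test, against 35.8% of all genes tested. The median log2 difference was -0.21 over the tested members and 0.01 over all genes. By CPM the 2 groups did not overlap for 3 tested members with psp1 above and 13 with psp1 below. Of all 17793 genes tested, 4599 and 2593 did so. The 9 were 2 D cyclins, 1 A cyclin, 2 B cyclins, the inhibitor KRP4, both CDC20 genes and HINKEL. They thus come from every role except the CDKs, of which 0 of 5 passed the test. With library totals as scaling, which moves the median of all genes to 0.12, 5 of the members were called lower, and all genes were called 2142 times higher and 1182 times lower in place of 1552 and 1620.

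CYCD1;1 (AT1G70210, TAIR10.1 chr1:26439556-26443007, plus strand), a D cyclin that acts at the entry into the cycle, fell most. It was at 13.5, 11.8 and 15.6 TPM in WT roots and at 5.43, 6.86 and 5.01 TPM in the roots labelled psp1 (-1.45 ± 0.16, adjusted p = 4.76e-06). Every library labelled psp1 lay well below every WT library. CYCD3;1 (AT4G34160, TAIR10.1 chr4:16357421-16359565, plus strand), a D cyclin that responds to cytokinin and sugar and keeps cells dividing, was at 89.9, 73.7 and 101 TPM against 61.4, 74.5 and 46.6 TPM (-0.75 ± 0.22, adjusted p = 0.000389). Library 2 labelled psp1 was level with the lowest WT library, and without WT root library 3 the call was lost (-0.64, adjusted p = 0.0129, the highest of its alternatives). It was also lost in the quasi-likelihood test with a replicate block (0.0123). The other tested D cyclins lay between -0.84 for CYCD5;1 and 0.44 for CYCD2;1 and did not pass the test. Without library 2 labelled psp1 CYCD5;1 was called (-1.38, adjusted p = 0.0038).

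CYCA2;3 (AT1G15570, TAIR10.1 chr1:5361865-5365559, plus strand), an A cyclin that restrains the switch from division to endoreduplication, fell from 14.1, 14.5 and 15.0 TPM to 10.2, 8.35 and 7.14 TPM (-0.96 ± 0.15, adjusted p = 0.000243), with the groups well apart. Among its relatives, CYCA2;2 was at 6.81, 4.78 and 6.70 TPM in WT and at 4.81, 3.11 and 0 TPM in the libraries labelled psp1. Its difference of -1.39 had an SE of 1.38 and did not pass (adjusted p = 0.0658), but without library 1 labelled psp1 it was called (-2.18, adjusted p = 0.00801). CYCA2;4 differed by -0.09 ± 0.22. CYCA3;2 differed by -0.54 ± 0.13 (adjusted p = 0.0536). All 6 tested A cyclins among the members had a negative difference with TMM scaling, while with library totals CYCA2;4 stood at 0.02. The 3 tested of the other A and B cyclins, which are not members, all had a positive difference, from 0.27 to 1.40.

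The B cyclins were split within their own subfamily. CYCB2;2 (AT4G35620, TAIR10.1 chr4:16901596-16904001, plus strand) was at 23.1, 22.7 and 24.2 TPM in WT roots and at 16.4, 19.8 and 14.2 TPM in those labelled psp1 (-0.68 ± 0.12, adjusted p = 0.00276). CYCB2;3 (AT1G20610, TAIR10.1 chr1:7134659-7137828, minus strand) was at 21.4, 21.0 and 22.7 TPM against 17.8, 16.0 and 7.46 TPM (-0.86 ± 0.37, adjusted p = 0.00575). Both were lower in every library labelled psp1, and library 3 was the lowest for both. CYCB2;4 differed by -0.07 ± 0.11 (0.04 with library totals), and CYCB2;1 by 0.67 ± 0.50, of which library 3 carried most, at 8.68 TPM against 2.73 and 3.67 TPM in libraries 1 and 2 (0.00 without library 3). CYCB1;4 lay just outside the threshold (-0.53 ± 0.06, adjusted p = 0.0131), with 30.5, 28.5 and 31.7 TPM in WT and 23.3, 25.2 and 24.1 TPM in the libraries labelled psp1. CYCB1;2, CYCB1;3 and CYCB3;1 differed by -0.28, -0.23 and 0.13 and were not called. The calls of the 2 that fell were close to the threshold. That of CYCB2;2 was lost without WT root library 1 (adjusted p = 0.015), 2 (0.0121) or 3 (0.0253) or without library 1 labelled psp1 (0.02), and over its alternatives the adjusted p ran from 0.00246 to 0.026. Library totals (0.0159), thinning (0.0222) and the quasi-likelihood test without (0.0112) and with a replicate block (0.026) also removed this call. The call of CYCB2;3 was lost without WT root library 1 (0.0278), 2 (0.02) or 3 (0.0423) or without library 2 (0.0112) or 3 (0.0131) labelled psp1, and its adjusted p ran from 0.00131 to 0.0423. Library totals (0.0192), thinning (0.0102) and the quasi-likelihood test without (0.023) and with the block (0.0243) removed it as well. CYCB2;3 shares 30.8% of its 31-base words with AT1G20590, so reads may be divided between them. With the counts of both summed the difference was -0.82 (adjusted p = 0.00369).

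Among the inhibitors KRP4 (AT2G32710, TAIR10.1 chr2:13873362-13876737, plus strand), the only one called, was at 33.7, 38.0 and 37.6 TPM in WT roots and at 17.5, 18.7 and 27.3 TPM in those labelled psp1 (-1.0 ± 0.22, adjusted p = 0.000100), with no overlap. KRP6 (AT3G19150, TAIR10.1 chr3:6616330-6617951, minus strand) was at 14.8, 13.8 and 7.86 TPM against 23.1, 19.9 and 25.7 TPM, a difference of 0.72 ± 0.30 in the other direction that did not pass (adjusted p = 0.0857). KRP3 (1.56 ± 0.75, adjusted p = 0.0662) and SIM (-0.72 ± 0.28, adjusted p = 0.0841) did not pass either. Over the 8 tested inhibitors the differences ran from -1.0 to 1.56 with a median of 0.05.

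CDC20.1 (AT4G33270, TAIR10.1 chr4:16044169-16046937, minus strand) fell from 130, 119 and 107 TPM to 89.1, 81.3 and 66.8 TPM (-0.79 ± 0.14, adjusted p = 2.27e-06), with the groups apart. CDC20.2 (AT4G33260, TAIR10.1 chr4:16041006-16043549, minus strand) was at 106, 77.0 and 79.3 TPM against 76.3, 66.1 and 68.7 TPM (-0.52 ± 0.17, adjusted p = 0.00922), where the groups touch. Their genes are neighbours on chromosome 4 and share 771 words of 31 bases, 57.4% of those of CDC20.1, so the division of reads between them is uncertain. With the counts of both summed the difference was -0.67 (adjusted p = 6.41e-05). The call of CDC20.2 alone was lost without WT root library 1 (adjusted p = 0.113) or 3 (0.0142) and without library 1 (0.0162), 2 (0.0642) or 3 (0.0144) labelled psp1, over a range from 0.00501 to 0.113. It was also lost with library totals (0.0427), in DESeq2 (0.0108) and in the quasi-likelihood test without (0.0211) and with a replicate block (0.0158). Of the cytokinesis genes, HINKEL (AT1G18370, TAIR10.1 chr1:6319450-6324378, minus strand) was at 19.5, 14.8 and 17.6 TPM against 13.6, 14.2 and 9.82 TPM (-0.67 ± 0.19, adjusted p = 0.00209), with library 2 labelled psp1 near the lowest WT library. Its call was lost without WT root library 1 (0.032) or 3 (0.0179), over a range from 0.00101 to 0.032. It was also lost with library totals (0.0123) and in the quasi-likelihood test without (0.0107) and with a replicate block (0.0159). KNOLLE (AT1G08560, TAIR10.1 chr1:2709525-2711000, minus strand), at 70.3, 76.3 and 65.3 TPM against 71.1, 57.0 and 87.2 TPM, differed by -0.18 ± 0.21 with overlapping groups.

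The CDKs themselves showed no called difference in roots. CDKB2;1 (AT1G76540, TAIR10.1 chr1:28720328-28722550, minus strand) was at 24.5, 22.8 and 23.4 TPM in WT and at 20.8, 20.5 and 19.1 TPM in the libraries labelled psp1 (-0.43 ± 0.05, adjusted p = 0.102). CDKB1;1 (AT3G54180, TAIR10.1 chr3:20059671-20061488, plus strand) was at 14.3, 16.6 and 13.3 TPM against 20.1, 22.4 and 21.4 TPM (0.32 ± 0.09, adjusted p = 0.30). The groups of both were separated in TPM, in opposite directions, but neither difference passed the test across all genes.

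Of the 9 members, CYCD1;1, KRP4 and CDC20.1 were called under every one of the alternatives run, and CYCA2;3 under all but the fit with a replicate block (adjusted p = 0.011). With the lowest library of this comparison, library 3 labelled psp1, left out, 7 members were called lower, and with WT root library 3 left out, 4.

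**Figure D3:**
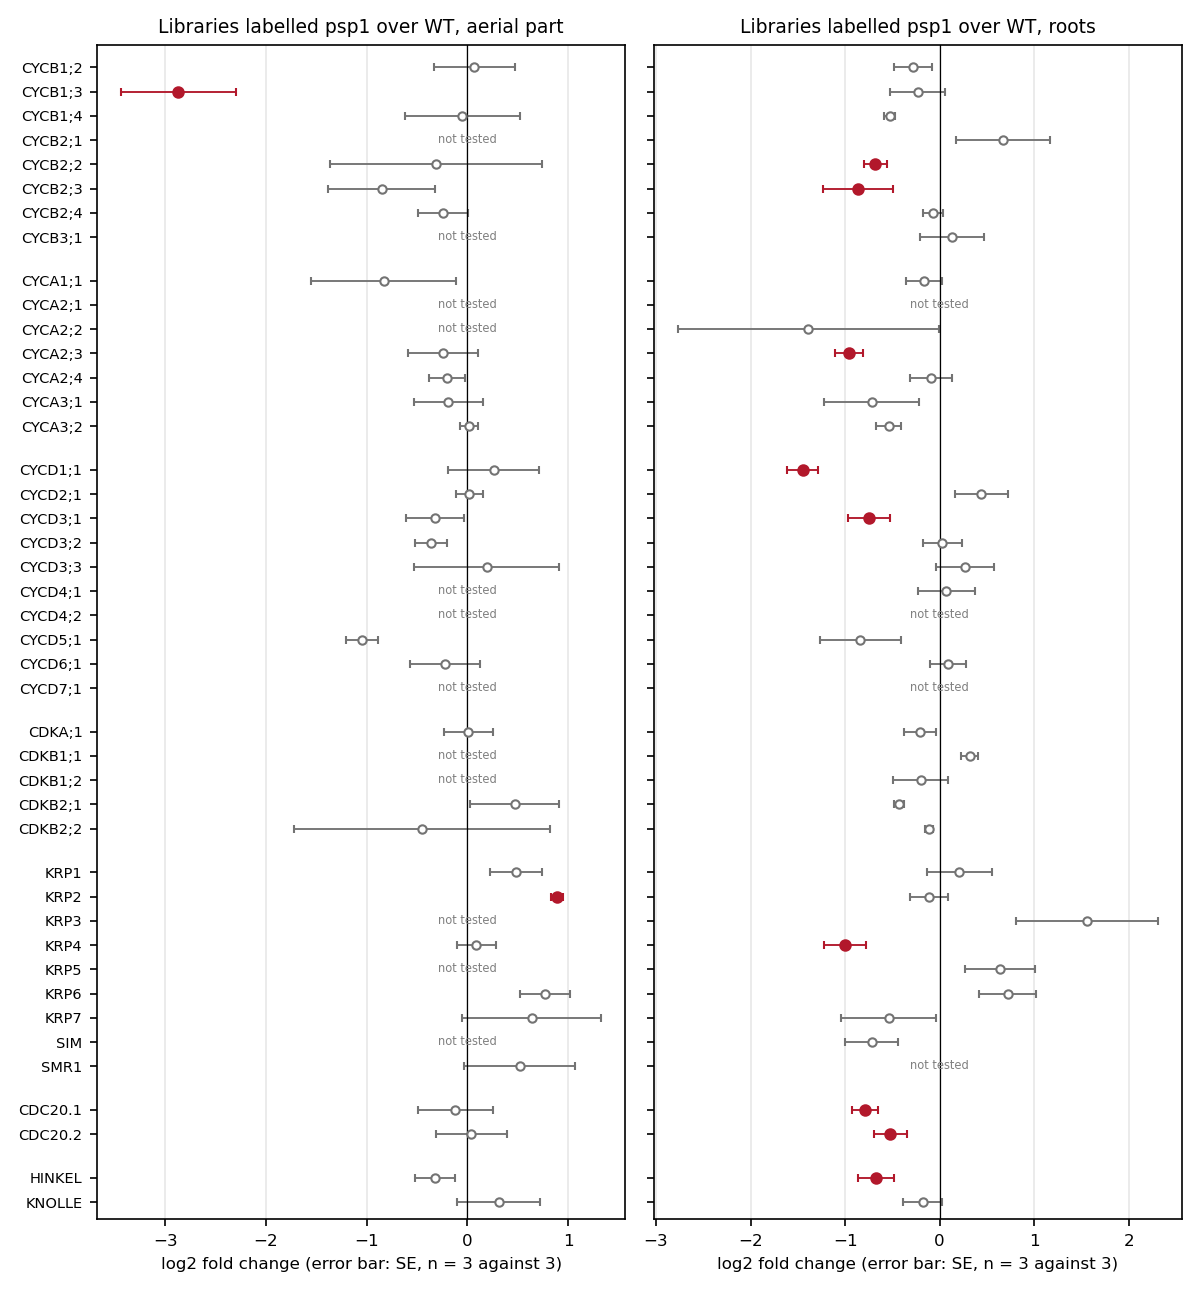
Log2 fold change of the libraries labelled psp1 over WT for each member, in the aerial part (left) and in roots (right), with the SE over 3 against 3 libraries. Filled points passed an adjusted p of 0.01. In roots the 9 filled points all lie below 0, and in the aerial part CYCB1;3 lies below and KRP2 above 0.

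**Figure D4:**
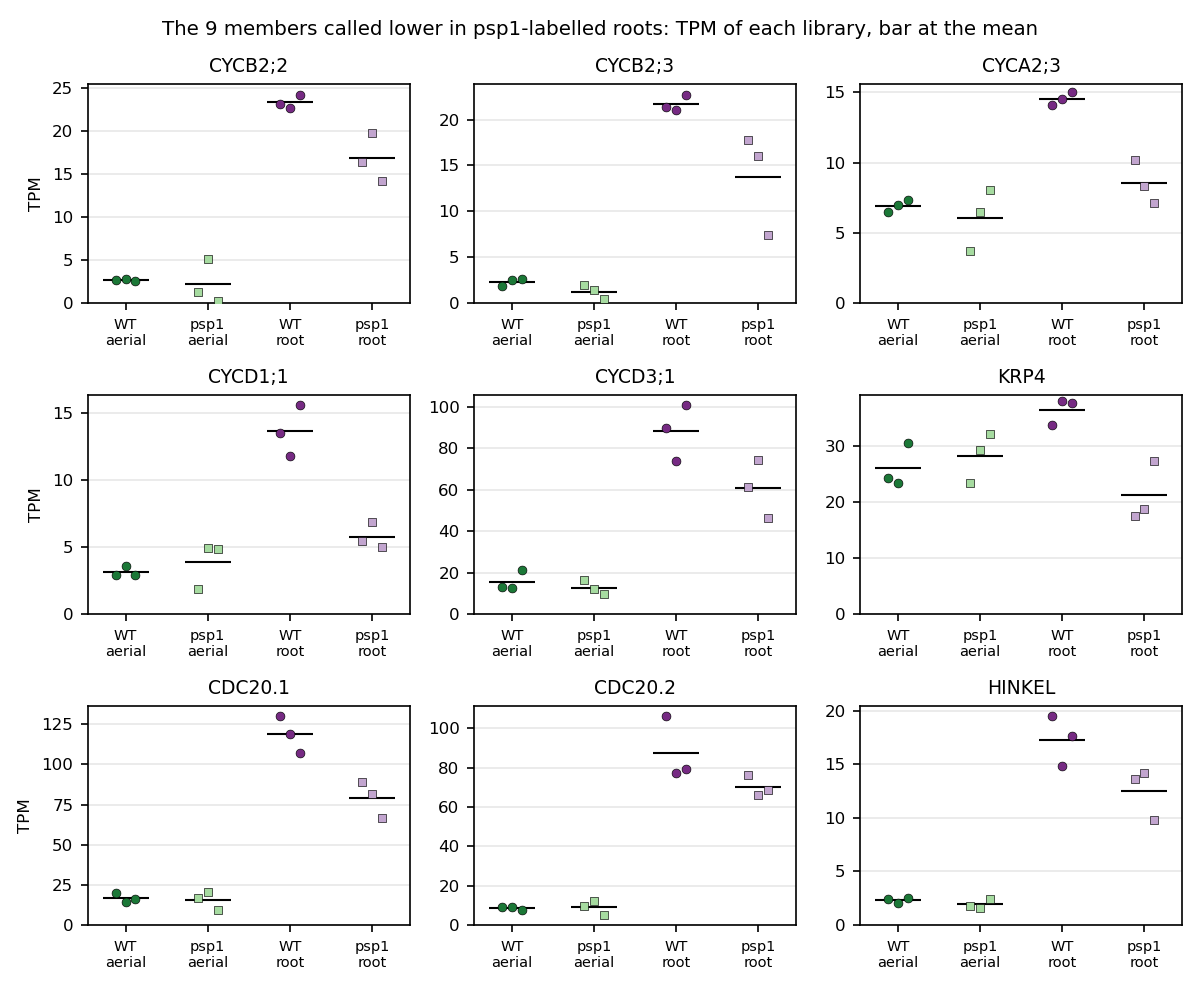
TPM of the 9 members called lower in the roots labelled psp1, in each library of the 4 groups. The bar is the mean of 3 libraries and each axis starts at 0. The roots labelled psp1 have a lower mean than the WT roots in each panel, and so do both aerial groups.

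Other genes of cell division, and other CDKs with their partners whatever their role, were counted in the same comparison of roots. Over all 17793 genes tested in it, 9.10% were called lower and 8.72% higher. Of 25 further genes of mitosis and cytokinesis, all tested, 5 fell in the roots labelled psp1 and 0 rose, with a median of -0.18. MYB3R4, an activator of mitotic genes, was at 38.7, 33.2 and 40.8 TPM in WT and at 22.0, 18.9 and 16.2 TPM in the libraries labelled psp1 (-1.19 ± 0.16, adjusted p = 8.13e-12). The other 4 were 3xHMG-box1, a protein of mitotic chromosomes (-0.91 ± 0.11), the kinesins POK1 (-0.68 ± 0.10) and POK2 (-0.57 ± 0.06), which position the division plane, and the microtubule protein EDE1 (-1.17 ± 0.14). POK1 and EDE1 lie outside the naming rule and were named after their values were seen. Without WT root library 2 or 3, or library 1 or 2 labelled psp1, EDE1 lost its call (adjusted p = 0.0174, 0.0425, 0.0187 and 0.0296). It also lost it in the quasi-likelihood test (0.0172), in DESeq2 (0.0165) and after thinning (0.0281). Of 13 tested genes of the anaphase-promoting complex, the activator CCS52B fell (-1.01 ± 0.31, adjusted p = 4.13e-05) and 0 rose. That count of 1 lies near the share of all genes called lower. Of 11 other CDKs and partners, CDKD;3 (-1.36 ± 0.49, adjusted p = 0.00227), a CDK-activating kinase, and CDKE;1 (-0.77 ± 0.25, adjusted p = 0.00960) fell. Each lost its call without WT root library 1 (0.0189 and 0.101) or 3 (0.0606 and 0.0207), and without library 2 labelled psp1 (0.0254 and 0.0257). CDKE;1 also lost it without WT root library 2 (0.0132) or library 1 (0.0124) or 3 (0.0368) labelled psp1. In the quasi-likelihood test (0.0151 and 0.0264) and after thinning (0.0115 and 0.0861) neither CDKD;3 nor CDKE;1 was called.

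Of 26 genes of DNA replication and of the G1 to S transition, all tested, 2 rose and 0 fell in these roots, near the 8.72% of all genes called higher, with a median of 0.09. RNR2A, a subunit of the enzyme that makes deoxyribonucleotides, was at 11.4, 10.2 and 10.3 TPM in WT roots and at 27.7, 36.5 and 27.6 TPM in those labelled psp1 (1.31 ± 0.12, adjusted p = 3.48e-08). MCM2, a subunit of the replicative helicase, was at 10, 13.1 and 11.6 TPM against 19.3, 19.6 and 18.3 TPM (0.51 ± 0.10, adjusted p = 0.00984), a call that leaving out any 1 of the 6 libraries removed (adjusted p from 0.0117 to 0.0851). The 5 genes of histone H3.1, which are expressed in S phase, summed to 414 to 474 TPM in WT and to 582 to 716 TPM in the libraries labelled psp1, but 0 of 5 were called by the exact test and 2 had an unadjusted p under 0.05. Of the other A and B cyclins 0 of 3 tested were called and 1 had an unadjusted p under 0.05. All 3 differences were positive, from 0.27 to 1.40 with a median of 0.29. The 5 cyclins of that list summed to 20.8 to 23.3 TPM in WT roots and to 31.2 to 33.1 TPM in those labelled psp1. Most of that was CYCA3;4, at 13.1, 13.8 and 12.6 TPM against 19.2, 20.1 and 16.4 TPM, without overlap.

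Some marker genes of cell types also differed between the genotypes in roots, where 8.72% of all genes tested were called higher and 9.10% lower. The 5 root meristem genes summed to 21.4 to 28.9 TPM in WT roots and 47.0 to 65.0 TPM in the roots labelled psp1. Most of that gap came from PLT3, at 13.4 to 17.6 against 37.1 to 49.5 TPM. Of 4 tested, PLT3, a regulator of the root stem cell region, rose (1.15 ± 0.16, adjusted p = 1.15e-09), and PLT1, PLT2 and BBM were not called (-0.34, 0.10 and 0.46, with overlapping groups). WOX5 was detected in both groups with too few counts to be tested. Of 6 root genes of other tissues 3 rose and 1 fell, with a median log2 difference of 1.24. Their sums, 2870 to 3390 TPM in WT and 2080 to 2920 TPM in the libraries labelled psp1, were almost all PYK10. PYK10 was at 2820 to 3340 TPM in WT and 1950 to 2770 TPM in the libraries labelled psp1. For PHT1;1, NRT2.1, LRX1 and EXPA7 every library labelled psp1 lay above every WT root library, and for COBL9 the groups overlapped. Of all 17793 genes tested, 4599 were separated in that direction by CPM and 2593 in the other. Leaf photosynthesis genes summed to 245 to 271 TPM in WT roots and to 116 to 207 TPM in those labelled psp1, where 1 of 5, LHCB3, fell (-1.51 ± 0.14, adjusted p = 1.18e-19). Shoot meristem genes summed to 98.9 to 109 TPM and 93.5 to 129 TPM, with 0 of 2 tested called and 1 with an unadjusted p under 0.05, and WUS and CLV3 were at 0 in both. Stomatal lineage genes summed to at most 0.558 TPM and trichome genes to 6.02 to 11.5 TPM and 11.4 to 12.6 TPM, with 0 of 2 trichome genes called. The part of these cell types, and of the lower depth of the libraries labelled psp1, in the fall of the 9 members was not tested. With all libraries thinned to 3627193 counts 7 members were called lower.

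MYB3R factors, such as MYB3R4 above, bind the mitosis-specific activator element, whose core is AACGG. The core was looked for on both strands (AACGG or CCGTT, which cannot overlap each other) in the 300 bases from 250 before to 50 after each gene start, in the TAIR10.1 assembly with the RefSeq annotation. It was found in 20 of the 43 members (46.5%) and in 24.7% of 26718 promoters. Among the B cyclins 7 of 8 had it and 5 of 8 had it at least 3 times, as 1.05% of all promoters do. It was found in 3 of 7 A cyclins, 1 of 10 D cyclins, 1 of 5 CDKs, 5 of 9 inhibitors, 1 of 2 CDC20 genes and both cytokinesis genes. Of the 9 members that fell in the roots labelled psp1 it was found in both B cyclins, CYCD3;1, CDC20.2 and HINKEL, and not in CYCA2;3, CYCD1;1, KRP4 and CDC20.1. The E2F sites TTTCCCGC and TTTGGCGC were found in 0 and 1 members (the 1 is CYCD3;3) and in 0.797% and 0.438% of all promoters. A match describes these letters and does not show that a factor binds there.

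The 250 bases before the gene start are printed for 6 members. The first 3 fell in roots and have the core, the next fell most in roots and lacks it, and the last 2 are those called in the aerial part, described further on. Each is read 5′ to 3′ on the strand of its gene, and capitals mark the AACGG core on either strand. In the order printed they are chr4:16901346-16901595 (plus strand), chr1:7137829-7138078 (minus strand), chr1:6324379-6324628 (minus strand), chr1:26439306-26439555 (plus strand), chr3:3627274-3627523 (minus strand) and chr3:18800056-18800305 (plus strand), all in TAIR10.1.
CYCB2;2: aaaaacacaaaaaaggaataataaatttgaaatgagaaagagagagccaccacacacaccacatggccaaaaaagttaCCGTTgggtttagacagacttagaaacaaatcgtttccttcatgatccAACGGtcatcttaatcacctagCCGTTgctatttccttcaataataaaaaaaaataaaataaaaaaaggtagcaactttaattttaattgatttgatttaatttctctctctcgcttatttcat
CYCB2;3: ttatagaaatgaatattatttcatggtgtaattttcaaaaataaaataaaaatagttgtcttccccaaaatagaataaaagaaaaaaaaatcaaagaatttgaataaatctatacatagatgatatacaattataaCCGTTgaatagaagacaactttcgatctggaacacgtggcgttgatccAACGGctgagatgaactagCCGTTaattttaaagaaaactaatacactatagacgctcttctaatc
HINKEL: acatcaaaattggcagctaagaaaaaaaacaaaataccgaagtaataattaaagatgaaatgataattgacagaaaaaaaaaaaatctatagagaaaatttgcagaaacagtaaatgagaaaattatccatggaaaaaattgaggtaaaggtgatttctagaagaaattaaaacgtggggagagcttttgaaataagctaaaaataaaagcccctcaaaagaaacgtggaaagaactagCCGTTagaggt
CYCD1;1: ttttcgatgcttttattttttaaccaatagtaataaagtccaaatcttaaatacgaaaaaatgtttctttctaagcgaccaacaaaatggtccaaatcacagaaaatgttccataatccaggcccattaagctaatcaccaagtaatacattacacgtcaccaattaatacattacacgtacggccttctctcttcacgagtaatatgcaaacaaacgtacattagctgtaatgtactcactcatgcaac
CYCB1;3: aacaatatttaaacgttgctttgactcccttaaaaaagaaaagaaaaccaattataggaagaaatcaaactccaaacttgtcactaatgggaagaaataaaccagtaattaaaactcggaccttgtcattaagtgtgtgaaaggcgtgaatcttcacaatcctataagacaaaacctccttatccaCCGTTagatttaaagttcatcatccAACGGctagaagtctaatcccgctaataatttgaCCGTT
KRP2: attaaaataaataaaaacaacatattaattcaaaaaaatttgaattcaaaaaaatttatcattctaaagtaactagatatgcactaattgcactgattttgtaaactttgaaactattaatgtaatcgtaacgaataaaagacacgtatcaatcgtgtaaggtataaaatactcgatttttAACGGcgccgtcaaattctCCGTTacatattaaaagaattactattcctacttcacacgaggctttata
CYCB2;2 and CYCB2;3 carry the core 3 times in the same arrangement, on the other strand, then on the gene strand, then on the other strand, starting at -172, -124 and -102 and at -114, -66 and -47 from the gene start. CYCB2;1, which was not called in roots, has it in that order too, at -137, -85 and -56, and HINKEL has it once, at -11. CYCB1;3 has the same order of strands, at -64, -39 and -5. KRP2 has another order, on the gene strand at -69 and on the other strand at -50 and at 26. The match at 26 lies after the start and so is not in the printed bases.

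**Figure D5:**
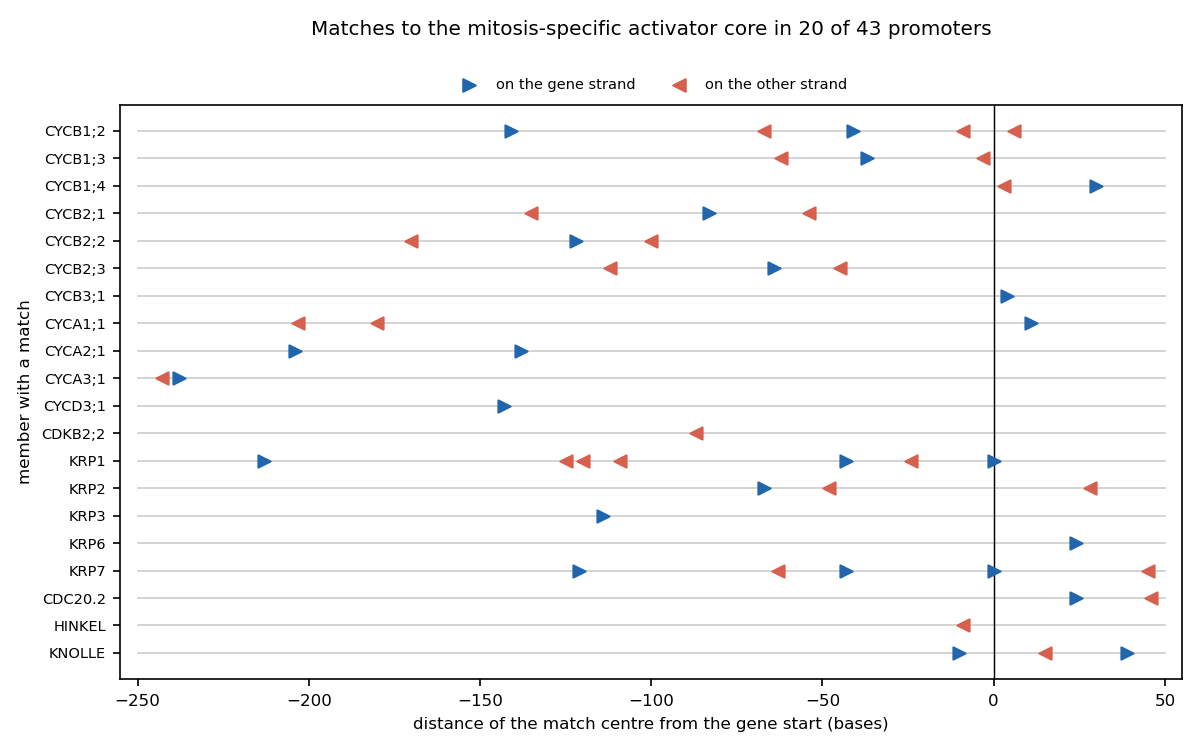
Distance from the gene start, in bases, of each match to the AACGG core in the 20 members that have one. Blue triangles are matches on the gene strand and red ones on the other strand, and the line at 0 is the gene start. The CYCB2 genes 1 to 3 and CYCB1;3 each show 3 matches in the same order of strands.

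In the aerial part few members were called between the genotypes. Of 31 members tested 1 rose, KRP2, and 1 fell, CYCB1;3, against 1.53% of all 15928 genes tested called higher and 0.904% called lower. By the exact test 4 of the 31 had an unadjusted p under 0.05, against 16.6% of all genes tested. The median log2 difference was -0.05 over the members and 0.01 over all genes. By CPM the 2 groups did not overlap for 2 tested members with psp1 above and 2 with psp1 below. Of all 15928 genes tested, 2196 and 1490 did so. The other 12 members, which are 2 B, 2 A and 3 D cyclins, both CDKB1 genes, KRP3, KRP5 and SIM, had too few counts to be tested.

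KRP2 (AT3G50630, TAIR10.1 chr3:18800306-18801595, plus strand), an inhibitor that in excess lowers cell number in leaves, was at 25.2, 27.8 and 26.8 TPM in the WT aerial part and at 54.7, 47.7 and 47.6 TPM in the libraries labelled psp1 (0.89 ± 0.06, 1.85-fold, adjusted p = 0.00154). The spread within each group was small against the gap between them. In roots it was at 51.2, 53.5 and 45.3 TPM in WT and 61.7, 58.6 and 39.2 TPM in the libraries labelled psp1 (-0.11 ± 0.20). Between organs, with TMM scaling, KRP2 differed by 0.39 ± 0.07 in WT (adjusted p = 0.0186) and by -0.58 ± 0.20 in the libraries labelled psp1 (adjusted p = 0.0358), and neither passed the test. With library totals the difference between WT organs was 0.91 and was called (adjusted p = 3.25e-08). The call of KRP2 between the genotypes in the aerial part was lost without WT aerial library 1 (adjusted p = 0.0869), 2 (0.0352) or 3 (0.048). It was also lost in the quasi-likelihood test without (0.0372) and with a replicate block (0.0806), over a range from 0.000706 to 0.0869. Of the other inhibitors, KRP6 was at 6.28, 4.23 and 3.47 TPM against 7.56, 8.19 and 9.01 TPM (0.77 ± 0.25, adjusted p = 0.373), and all 6 tested inhibitors had a positive difference, with a median of 0.58, but none besides KRP2 passed. Without library 1 labelled psp1 KRP7 stood at -0.37, and without library 3 labelled psp1 KRP4 stood at -0.02. Together the 9 inhibitors summed to 95.8, 97.3 and 101 TPM in WT and to 139, 133 and 163 TPM in the libraries labelled psp1. The mean of that sum was 97.9 and 145 TPM, and KRP2 alone had a mean of 26.6 and 50 TPM. SIM and SMR1, with the overlap on the other strand given above, are in the sum, which was not tested.

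CYCB1;3 (AT3G11520, TAIR10.1 chr3:3625286-3627273, minus strand), a B cyclin of mitosis, had 22, 20 and 12 counts in the WT aerial libraries and 4, 0 and 0 in those labelled psp1 (-2.87 ± 0.57, adjusted p = 0.00368). All 3 libraries labelled psp1 lay below WT, but with so few counts the SE, which rests on a prior count, understates the error. The call was lost without WT aerial library 3 (adjusted p = 0.0187), without library 2 (0.0182) or 3 (0.0125) labelled psp1, and in the quasi-likelihood test (0.117), and its adjusted p ran from 0.00058 to 0.167. With the libraries thinned to the lowest total it was not tested. In roots CYCB1;3 was at 9.34, 18.1 and 16.0 TPM in WT and 13.2, 16.2 and 13.6 TPM in the libraries labelled psp1, which overlap.

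The next smallest p-values in the aerial part were those of 2 D cyclins. CYCD5;1 was at 5.07, 5.05 and 4.39 TPM in WT and 2.37, 1.94 and 2.86 TPM in the libraries labelled psp1, without overlap (-1.05 ± 0.16, adjusted p = 0.135). CYCD3;2 was at 62.5, 52.4 and 71.3 TPM against 59.0, 44.9 and 43.4 TPM (-0.36 ± 0.16, adjusted p = 0.291). Neither passed the test. Of the mitotic genes that fell in roots, CDC20.1 differed here by -0.12 ± 0.37, CDC20.2 by 0.04 ± 0.35, HINKEL by -0.32 ± 0.20, CYCB2;2 by -0.31 ± 1.05 and CYCB2;3 by -0.85 ± 0.53. All 5 pairs of groups overlap and none of these differences was called.

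Over all 15928 genes tested in the aerial part, 0.904% were called lower and 1.53% higher. Of the other listed genes there, CDC6, which loads the replicative helicase, fell from 4.68, 4.12 and 5.02 TPM to 1.89, 1.66 and 0.466 TPM (-1.75 ± 0.53, adjusted p = 0.00140), 1 of 22 tested replication genes. CDKE;1 fell from 15.0, 11.8 and 13.5 TPM to 6.98, 6.52 and 7.27 TPM (-0.98 ± 0.11, adjusted p = 0.00281), 1 of 8 tested CDKs and partners. Both calls were lost without WT aerial library 1 (adjusted p = 0.055 and 0.128), 2 (0.0252 and 0.0224) or 3 (0.0485 and 0.047), and in the quasi-likelihood test (0.0631 and 0.0457). Of 23 tested genes of mitosis and cytokinesis, 10 of the anaphase-promoting complex, 5 of histone H3.1 and 3 other A and B cyclins, 0 were called in the exact test, 1, 0, 0 and 0 of them with an unadjusted p under 0.05. Leaf photosynthesis genes summed to 15200 to 20300 TPM in WT and 12100 to 17100 TPM in the libraries labelled psp1, with 2 of 5 called lower. Stomatal lineage genes summed to 24.8 to 28.1 TPM and 29.4 to 40.9 TPM, shoot meristem genes to 26.7 to 29.5 TPM and 23.9 to 26.8 TPM and trichome genes to 18.6 to 24.4 TPM and 16.7 to 30.1 TPM, with 0 of 3, 0 of 3 and 0 of 1 tested called. WUS and CLV3 were at 0 in both groups. The part of these cell types in the differences of KRP2 and CYCB1;3 was not tested.

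Whether the difference between the genotypes itself differs between the organs was asked by the interaction term of a quasi-likelihood fit in edgeR, with all 12 libraries. Of 41 members tested 0 were called in either direction, against 0.816% of 18759 genes called higher, that is more positive in roots, and 0.864% called lower. An unadjusted p under 0.05 was reached by 6 of the 41. The share of all genes at that level was not counted, so that 6 is not compared. With DESeq2 size factors as scaling the calls over all genes were 143 higher and 234 lower in place of 153 and 162. The 4 members with the smallest p were CYCB1;3 (2.72 ± 0.71, adjusted p = 0.0501), KRP2 (-0.91 ± 0.21, adjusted p = 0.0595), KRP4 (-0.99 ± 0.28, adjusted p = 0.0604) and CYCD1;1 (-1.60 ± 0.46, adjusted p = 0.0754). DESeq2 called 1 member, KRP2 (-0.98, adjusted p = 0.00647). The fall of the 9 members in roots is therefore not shown to be particular to roots. Of the other cell cycle lists, RNR2A was called higher (1.41 ± 0.26, adjusted p = 0.00771). Leaving out any 1 of WT libraries 1 to 3 of either organ, library 1 of the aerial part labelled psp1 or any of the 3 roots labelled psp1 took its adjusted p above the threshold, to at most 0.0365.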

How the data were processed

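Poly(A) RNA of 12 samples was sequenced as single reads of 75 bases on a SOLiD instrument. Per the labels' protocols, reads were matched by the authors against TAIR10 transcripts using kallisto 0.43.0 at a set fragment length of 200 and SD of 30 bases. The deposited tables give estimated counts and TPM for 27416 targets, 1 per locus. Between 3.62% and 6.18% of the estimated counts of a library were not whole (tolerance 0.001), and all were rounded to whole numbers here. TPM were used as deposited and not tested. Lengths of 27412 targets are multiples of 3, so these are coding lengths; all 43 members match the coding length of TAIR10.1, which gave names, coordinates and promoters.

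The main test followed the labels' protocols: edgeR (4.0.16 in R 4.3.3) in its classic mode with TMM, the default filter on low counts, the exact test on the 6 libraries of a comparison and Benjamini-Hochberg adjustment over all genes tested, at 0.01. The interaction used the quasi-likelihood test over 12 libraries. The SE is the spread of log2 CPM with a prior count of 2 over 3 libraries per group, and the common biological variation was 13.2% to 23.5%. The fits were tested on simulated counts. Alternatives were another scaling (DESeq2 size factors, library totals), no filter, the quasi-likelihood test, DESeq2 1.42.0, a replicate block, thinning to 3627193 counts, and leaving out each library. The summing of near copies was added after seeing the data. All members and lists were chosen with earlier results of these data known. Full values are given for members called between genotypes, the 4 smallest p-values of each such test, and the 4 largest called organ differences in each direction with a mean of at least 10 counts. Of the fixed lists, POLD1 and 4 SMR genes were left out because the reference names them otherwise. Of the other SIAMESE-related genes 0 of 3 had enough counts to be tested.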

Additional observations from a re-analysis of the deposited data

How the results depend on the processing

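In roots 9 members were lower in the libraries labelled psp1. This count was 5 with library totals as scaling, 5 in the quasi-likelihood test, 3 in that test with a replicate block, and 4 to 8 when 1 library was left out. It was 9 with DESeq2 size factors or without the filter, 8 with DESeq2 and 7 after thinning. The count of members higher stayed at 0 in all of these. In the aerial part the 1 member higher became 0 in the quasi-likelihood test, with or without the replicate block, and 0 to 2 when 1 library was left out. The 1 member lower became 0 without the filter, in the quasi-likelihood test with or without the block, in DESeq2 and after thinning, and 0 to 1 when 1 library was left out. In the comparison of organs, members lower in roots went from 5 to 3 in WT and from 3 to 0 in the libraries labelled psp1 with library totals, and to 2 to 5 in the latter when 1 library was left out. The interaction gave 0 members under every alternative except DESeq2, which gave 1 lower. Some differences between genotypes that were not called turned their sign. With library totals, CYCB2;4 in roots was at 0.04 and CYCA2;4 at 0.02 (0.01 after thinning), and with the replicate block CDC20.2 in the aerial part was at -0.01. When 1 library was left out, values in roots ran from -0.16 to 0.03 for CYCB2;4, -0.27 to 0.07 for CYCA2;4, 0.00 to 0.97 for CYCB2;1, -0.14 to 0.36 for CYCB3;1, -0.25 to 0.04 for KRP2 and -0.21 to 0.42 for PLT2. In the aerial part they ran from -1.72 to 0.18 for CYCB2;2, -0.02 to 0.25 for KRP4, -0.37 to 1.05 for KRP7, -0.40 to 0.12 for CDC20.1 and -0.24 to 0.27 for CDC20.2. The cause was not tested. No called difference of a named gene turned its sign under the alternatives run.

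The labels do not state whether replicate numbers pair the libraries. Between the WT organs, the deviations of same-numbered libraries correlated at 0.03, 0.12 and 0.15, and those of differently numbered ones from -0.14 to 0.02. In the other comparisons same-numbered libraries ran from -0.05 to 0.05 and differently numbered ones from -0.08 to 0.10. A pairing of the WT organs was not tested further. With the replicate block 27 members were higher in WT roots and 15 in the roots labelled psp1. Over all genes, the higher calls in the aerial part fell from 243 to 28 and the lower ones from 144 to 3 in the quasi-likelihood test, and to 19 and 2 with the block. Few counts limit members such as CYCB1;3, SMR1 and CYCD4;2, and 12 of 43 members could not be tested between genotypes in the aerial part.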
